A study of Homo sapiens with 24 samples.

Results

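Eahy926 cells carried 1078 autosomal regions of histone H3 lysine 27 acetylation (H3K27ac) that were marked in every Eahy926 library and in no TeloHAEC library. The regions were chosen by merging the autosomal peaks of the 20 ChIP libraries wherever they overlapped by at least 1 bp, at a −log10 q of at least 2 as deposited by the authors. A merged region was kept when it overlapped a peak in all 10 Eahy926 libraries and in none of the 10 TeloHAEC libraries. The 1078 regions were 1.24% of the 86917 merged regions. Since the presence of peaks in each line chose them, their restriction to Eahy926 is the rule itself, and the difference between the lines was not tested. They are called Eahy926-only regions here.

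H3K27ac is laid down by histone acetyltransferases such as p300 and CBP and marks active promoters and enhancers. Enhancers differ between cell types more than promoters do, so a set of acetylated regions held by a single line is often rich in distal elements that act on genes at a distance. In endothelial cells, tumor necrosis factor alpha (TNFa) and interleukin 1 beta (IL1b) activate the transcription factor NF-κB, and vascular endothelial growth factor (VEGF) signals through receptor tyrosine kinases.

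Both lines were parental human endothelial lines. Eahy926 is a hybrid line, made by fusing umbilical vein endothelial cells with a lung carcinoma line, and was grown in DMEM with 10% fetal bovine serum, which lacks VEGF. TeloHAEC are aortic endothelial cells made immortal with telomerase and were grown in an endothelial medium that contains VEGF. Each line gave 5 groups of 2 ChIP libraries: untreated controls whose libraries were prepared on day 0, untreated controls prepared on day 1, and day 1 libraries of cells given IL1b, TNFa or a VEGF change. Both cytokines were given at 10 ng/ml for 24 hours. In the VEGF groups, VEGF was added to Eahy926 cells and left out of the TeloHAEC medium. The replicates are biological per the labels, which do not say how the cultures were separated, so p-values measure the spread between these libraries. The peak lists hold positions and no gene names, so endothelial marker genes were not checked.

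Depth differed by library day. Tags kept after filtering numbered 18742086 to 21135399 in the Eahy926 day 0 libraries and 5568829 to 7122108 in those of day 1. TeloHAEC libraries held 18387194 to 20952578 tags on day 0 and 3843129 to 5912920 on day 1, and the 4 input libraries 13780878 to 16036165. Replicate 2 of IL1b stood apart among the Eahy926 libraries with 27425 autosomal peaks, against 35994 to 46477 in the other 9. Without it, 1411 regions met the rule.

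The Eahy926-only regions together covered 1.52 Mb, or 2.04% of all merged sequence. Their lengths ran from 467 to 3539 bp with a median of 1413.5 bp, against 1655 bp for the 9509 regions with a peak in all 20 libraries and 1346 bp for the 1710 regions held by all 10 TeloHAEC and no Eahy926 library. They had no TeloHAEC peak at the threshold, and 1049 of them had none at any q in the deposited lists. The other 29 (2.69%) had a TeloHAEC peak under the threshold. The nearest to crossing it were chr2:230353926-230355014, at a −log10 q of 1.99 in control replicate 2 of day 1, and chr21:34738839-34740334, at 1.93 in TNFa replicate 2.

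On the Eahy926 side of the threshold, the weakest evidence lay in replicate 2 of IL1b. Regions chr1:193102128-193102979 and chr9:75048504-75049514 entered with a −log10 q of 2.005 there, and chr1:238811483-238812492 with 2.011. Just outside, chr11:132603726-132605128 reached 1.997 and chr9:20592910-20594087 reached 1.995 in that library. Regions with 9 Eahy926 peaks and no TeloHAEC peak numbered 614, and 331 of these were missing from replicate 2 of IL1b alone. A further 232 regions had all 10 Eahy926 peaks and a peak in exactly 1 TeloHAEC library. The shortest Eahy926 list thus left out more of these regions than the other 9 lists together.

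Height was taken as the fold enrichment of the tallest summit over the local background, as computed by the authors' peak caller, and summarised for each region as its median over the 10 Eahy926 libraries. The Eahy926-only regions ranged from 2.19 to 10.5 with a median of 5.35 and quartiles of 4.61 and 6.19. Regions shared by all 20 libraries had a median of 6.08 in the same libraries and reached 18.3. TeloHAEC-only regions measured in TeloHAEC had a median of 5.40. Very tall peaks were few among the Eahy926-only regions, with 2 (0.186%) at a fold enrichment of 10 or more against 363 (3.82%) of the shared regions.

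Lower heights were also seen when regions were ordered by height. Of the 16721 regions with a peak in all 10 Eahy926 libraries, ranked by fold enrichment and cut into 10 equal bins, the Eahy926-only regions made up 8.13% to 9.57% of the 4 lowest bins and 1.38% of the top bin. Ranking by depth-scaled pileup, the number of overlapping fragments at the summit per 1000000 tags, gave 10.5% in the lowest bin and 3.05% in the top bin. Both orders put the set toward the lower end of the regions found in every Eahy926 library. These heights come from the libraries that chose the regions and carry no test.

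Peaks in these regions were broad enough to hold several summits. A median of at least 2 summits over the 10 libraries was called in 565 regions (52.4%), against 65.0% of the shared regions and 57.3% of all regions with a peak in every Eahy926 library. The position of the tallest summit moved over a median range of 525 bp across the 10 libraries, with a median absolute deviation of 46 bp, against 437 and 36 bp in the shared regions. Within a region the tallest library exceeded the lowest by a median factor of 1.73, close to the 1.74 of shared regions.

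Every Eahy926 library showed the set below the shared regions. The median fold enrichment of the Eahy926-only regions was 6.43 and 6.20 in the day 0 controls and 5.22 and 5.06 in the day 1 controls. With IL1b it was 5.12 and 4.66, with TNFa 5.20 and 5.50, and with added VEGF 5.23 and 5.25. The day 0 libraries were thus the tallest, replicate 2 of IL1b was the lowest, and the treated day 1 groups lay around the day 1 controls. Divided by the median of the shared regions, the values were 0.813 to 0.837 on day 0 and 0.867 to 0.907 on day 1, so the 2 days did not overlap. Their share of the sequence under peaks was 3.33% to 3.43% on day 0 and 4.08% to 4.88% on day 1. Depth moved with the day, and its part in these values was not tested.

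**Figure D1:**
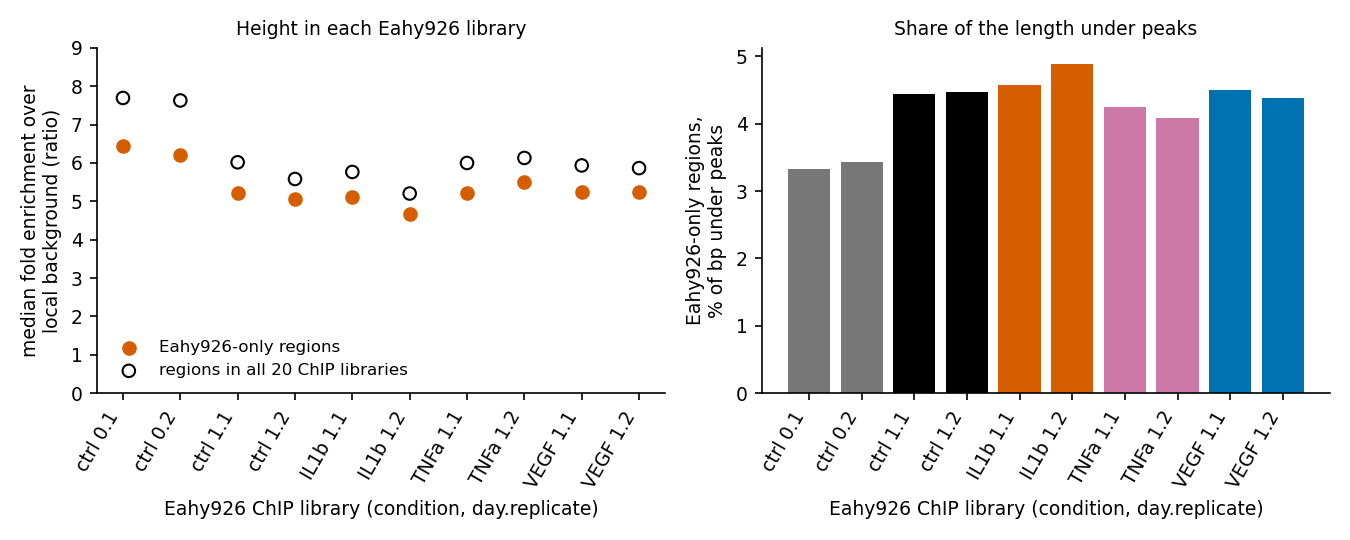
Left, median fold enrichment over local background (ratio) of the Eahy926-only regions (filled) and of the regions with peaks in all 20 ChIP libraries (open) in each Eahy926 ChIP library. Right, Eahy926-only regions as a percent of the bp under autosomal peaks, coloured by condition; the day 0 controls are highest on the left (6.20 and 6.43) and lowest on the right (3.33% and 3.43%).

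The strength of the peak evidence held in every library varied within the set. A −log10 q of at least 5 in all 10 libraries was held by 381 regions (35.3%), of at least 10 by 67, and of at least 20 by 2. The shares of the whole table at these bounds were not counted. With regions of both lines remade at 5, 9145 had a peak in all 10 Eahy926 libraries, 543 of them Eahy926-only. At the threshold of the rule these numbers were 16721 and 1078. A fold enrichment of at least 3 in all 10 libraries was held by 969 regions (89.9%), of at least 4 by 574, of at least 5 by 163 and of at least 6 by 26, again without a count for the table. The library with a region's highest value was a day 0 control in 643 regions (59.6%), and the lowest value fell in replicate 2 of IL1b in 306 (28.4%). These values are not centred. Over the whole table the day 0 libraries were likewise the tallest (medians 7.34 and 7.22) and replicate 2 of IL1b the lowest (4.96). The matching shares of the table were not counted.

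The order of the regions by height was partly shared between libraries. As a description across regions, Spearman's rho between the 2 libraries of a group ran from 0.545 to 0.866 with a median of 0.663 over the 5 groups. Between different groups of day 1 it ran from 0.510 to 0.685, and between day 0 and day 1 from 0.495 to 0.657. Libraries of a group were thus little closer to each other than to libraries of another treatment on the same day.

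The 10 tallest regions had medians from 9.09 to 10.5. The tallest was chr1:142705136-142705901, a 766 bp region next to the centromeric heterochromatin of chromosome 1. Its fold enrichment was 12.2 and 11.9 in the day 0 controls, 14.4 and 6.88 in the day 1 controls, 8.14 and 9.60 with IL1b, 9.75 and 10.9 with TNFa, and 10.3 and 10.7 with VEGF. The day 1 controls held both its highest and its lowest value, so the spread within a group was as wide as the spread across all conditions.

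The runner-up, chr17:69068140-69068948, was more even. It measured 11.5 and 11.4 on day 0, 10.6 and 10.0 in the day 1 controls, 9.16 and 6.66 with IL1b, 9.19 and 13.3 with TNFa, and 9.20 and 10.3 with VEGF. Its nearest region shared by all 20 libraries lay 1029900 bp away, and its nearest Eahy926-only neighbour 339294 bp away. The megabase that holds it, from 69000001, held 18 merged regions in all, 6 of them Eahy926-only. The tallest summit stayed within 79 bp over the 10 libraries.

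Region chr1:207326314-207327254 ranked next, at 12.5 and 13.1 on day 0, 7.08 and 8.18 in the day 1 controls, 10.3 and 8.64 with IL1b, 8.26 and 9.67 with TNFa, and 11.9 and 9.83 with VEGF. Its day 1 controls were its lowest group and its day 0 controls its highest. On chromosome 17, chr17:39204340-39205575 had the strongest minimum evidence of the 10, with a −log10 q of at least 14.3 in every library and a fold enrichment from 7.37 to 11.4. It lay 10602 bp from another Eahy926-only region.

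The remaining 6 were chr16:13515295-13516419 (median 9.34), chr12:114210611-114211544 (9.26), chr4:157215248-157215921 (9.24), chr2:126163010-126164436 (9.16), chr20:10308828-10310025 (9.12) and chr17:21002317-21002934 (9.09). Most varied more than the tallest pair did. Region chr17:21002317-21002934 ran from 4.72 in VEGF replicate 2 to 14.4 in control replicate 1 of day 0, with its tallest summit within 52 bp in all libraries. Region chr12:114210611-114211544 reached 13.2 in TNFa replicate 2 and 5.08 in IL1b replicate 2. It was also the closest of the 10 to a shared region, at 7254 bp, whereas chr2:126163010-126164436 lay 1657140 bp from any.

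**Figure D2:**
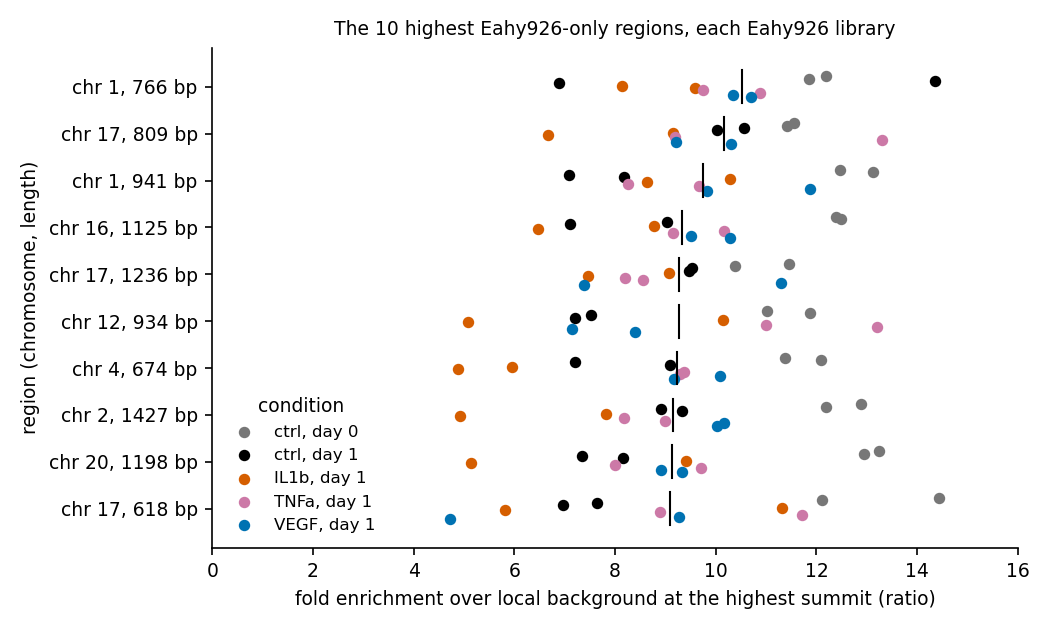
Fold enrichment over local background (ratio, linear axis) of the 10 tallest Eahy926-only regions, labelled by chromosome and length, with 1 point for each Eahy926 library coloured by condition and a bar at the median of the 10. The day 0 controls sit at the right of most rows, and the points of a condition are often as far apart as those of different conditions, as in the top row, where the day 1 controls are at 6.88 and 14.4.

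The longest regions were not tall. The longest, chr3:169243449-169246987, spanned 3539 bp with a median fold enrichment of 4.26 and a range of 3.67 to 5.20, and its tallest summit moved over 2616 bp between libraries. Region chr17:69894981-69898024, of 3044 bp, had a narrow range of 4.10 to 5.11 and a −log10 q of at least 13.0 in every library. Region chr20:9049558-9052595, of 3038 bp, was among the lowest of all at 1.92 to 2.63 and began 65 bp from the end of another Eahy926-only region. On chromosome 12, chr12:21519791-21522864 (3074 bp, median 4.25) and chr12:21568177-21571185 (3009 bp, median 4.84) were also long, and the second had a −log10 q of at least 14.6 in every library. Broad, moderately enriched domains with several summits were thus part of the set.

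The regions lay close to each other more often than to TeloHAEC-only regions, as the other classes also did with their own kind. The nearest other Eahy926-only region was a median of 199088.5 bp away, the nearest region shared by all 20 libraries 199989.5 bp, and the nearest TeloHAEC-only region 1124572 bp. Within 50 kb, 347 regions (32.2%) had another Eahy926-only region, 247 (22.9%) a shared region and 25 (2.32%) a TeloHAEC-only region. Shared regions outnumber Eahy926-only regions 9509 to 1078, yet the closest neighbour was Eahy926-only for 530 regions (49.2%), shared for 501 (46.5%) and TeloHAEC-only for 47 (4.36%). Among TeloHAEC-only regions, 33.0% had another of their class within 50 kb and 1.40% an Eahy926-only region, and 58.3% of the shared regions had another shared region that near. TeloHAEC-only regions lay nearer to shared regions, at a median of 85389 bp.

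**Figure D3:**
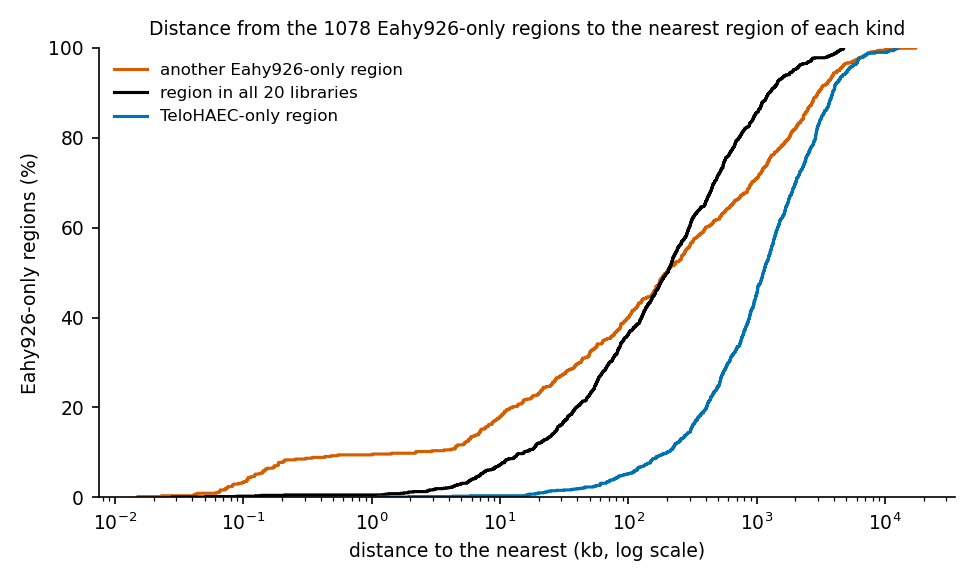
Cumulative percent of the 1078 Eahy926-only regions (vertical axis) within a given distance (kb, log scale) of the nearest other Eahy926-only region, the nearest region in all 20 ChIP libraries and the nearest TeloHAEC-only region. The curves for Eahy926-only and shared neighbours meet near 200 kb (medians 199088.5 and 199989.5 bp), and the curve for TeloHAEC-only neighbours lies to the right (median 1124572 bp).

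Short runs accounted for part of this clustering. With a spacing under 10 kb counted as a run, 884 regions stood alone and 194 (18.0%) fell into 82 pairs, 6 runs of 3 and 3 runs of 4. TeloHAEC-only regions were in runs at 15.3% and shared regions at 19.8%, so the share in runs was similar in the 3 classes. None of the 3 runs of 4 held a shared or TeloHAEC-only region.

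The run at chr5:119939794-119960648 spanned 20855 bp, with its lowest member at the left end and its tallest at the right. Medians were 2.93 at chr5:119939794-119940634, 3.77 at chr5:119940788-119941827, 3.58 at chr5:119950328-119952315 and 5.59 at chr5:119959344-119960648. The last of these ranged from 4.74 in IL1b replicate 1 to 7.80 in VEGF replicate 2. The nearest shared region lay 450826 bp from the run.

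The run at chr2:75814697-75834359 covered 19663 bp with medians of 4.61, 3.996, 3.58 and 5.18 from left to right. Its first member, chr2:75814697-75816159, measured 7.68 and 6.93 in the day 0 controls, 3.82 and 3.14 in the day 1 controls, 4.70 and 3.80 with IL1b, 4.53 and 5.55 with TNFa, and 5.53 and 3.86 with VEGF, so that both day 0 values lay above all day 1 values. Its last member, chr2:75833453-75834359, was more even, between 3.85 and 5.71.

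The run at chr8:6152677-6171449, of 18773 bp, was the broadest of the 3 in acetylated sequence, with 7323 bp in its 4 members. Of the 3 runs of 4 it was also the lowest, with medians of 3.27, 2.61, 3.66 and 4.03. Each member nonetheless had a −log10 q of at least 5.82 in every library. Low enrichment over a local background went with secure peak calls there.

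Over wider windows, most merged regions of some megabases had a peak in Eahy926 and none in TeloHAEC. These windows were chosen after their counts were seen, for their number of Eahy926-only regions, which lack a TeloHAEC peak by the rule. Over all autosomes, 86917 regions were merged. Those without a TeloHAEC peak numbered 7408, 3410, 1508, 1103 and 741 with peaks in 1, 2, 3, 4 and 5 Eahy926 libraries. With peaks in 6, 7, 8, 9 and 10 they numbered 630, 561, 501, 614 and 1078. The megabase of chromosome 9 that starts at 113000001 held 8 Eahy926-only regions, the most of any, and 32 of its 42 merged regions had no peak in any TeloHAEC library. In the megabase of chromosome 1 that starts at 238000001, all 32 merged regions lacked a TeloHAEC peak, 7 of them Eahy926-only, and in the one that starts at 240000001, 31 of 32 lacked one, again with 7. On chromosome 4, all 22 merged regions of the megabase that starts at 162000001 lacked a TeloHAEC peak, with 6 Eahy926-only regions among them. Elsewhere the regions were spread thinly, with 423 megabases holding a single one.

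Chromosomes contributed unevenly. Relative to their share of the regions in all 20 libraries, Eahy926-only regions were over-represented on chromosome 21 by a factor of 2.25 (25 regions), on 18 by 1.85 (40), on 4 by 1.66 (71), on 5 by 1.47 (89) and on 8 by 1.45 (72). They were fewest by the same measure on chromosome 19, at 0.526 (23 regions), 22, at 0.554 (11), and 11, at 0.575 (37). TeloHAEC-only regions had another order, with chromosome 13 highest at 3.12 (83 regions), where Eahy926-only regions stood at 1.43 (24). The direction for Eahy926-only regions there depends on the reference. Chromosome 13 held 2.23% of them, against 1.56% of the shared regions but 2.79% of all merged regions. It held 4.85% of the TeloHAEC-only regions. Relative to the shared regions, chromosomes 1, 11, 12, 14, 15, 16, 17, 19, 20 and 22 lay below 1 for both classes. DNA copy number of the lines was not analysed here, and its part in these shares was not tested.

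**Figure D4:**
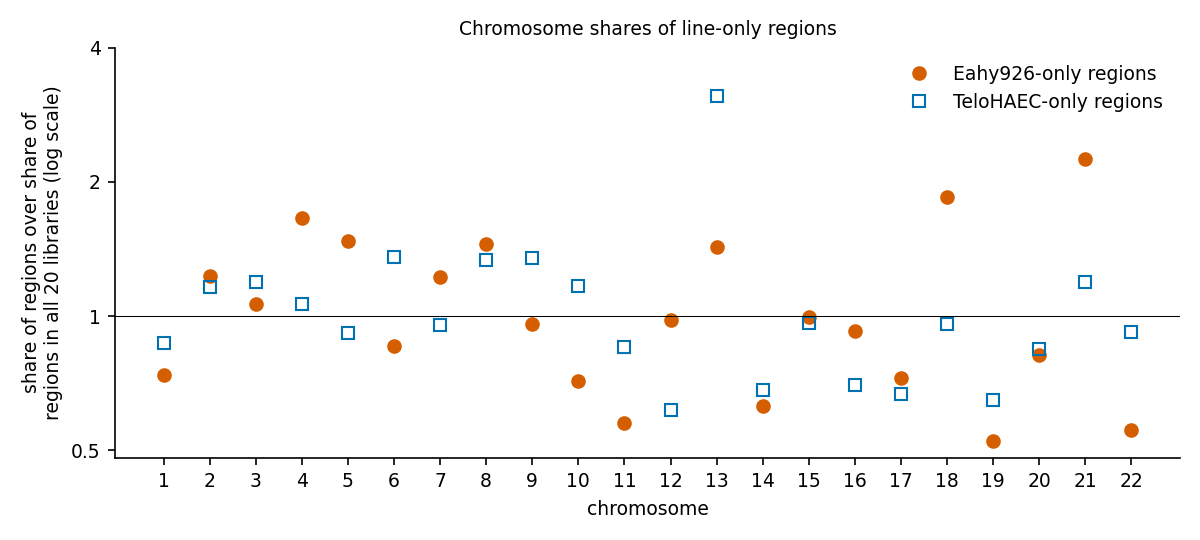
Share of Eahy926-only regions (filled) and TeloHAEC-only regions (open squares) on each autosome, divided by that chromosome's share of the regions with peaks in all 20 libraries (vertical axis, log scale); the line marks equal shares. Eahy926-only regions are highest on chromosome 21 (2.25) and lowest on 19 (0.526), and TeloHAEC-only regions are highest on 13 (3.12).

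Whether the height of the set changed with the treatments was tested within Eahy926. The rule did not compare these groups, but it required a peak in every library of each. The fit was limma on the log2 fold enrichment of all 16721 regions with a peak in every Eahy926 library, each library centred on its median, with Benjamini-Hochberg adjustment over the 16721 regions and a call at an adjusted p under 0.05. A region that lost its peak with a treatment could not be in the table, so only changes in height were visible, for Eahy926-only and other regions alike. Without that condition, with a missing peak set to a fold enrichment of 1, limma called 1.82% of 40701 regions for IL1b, 2.66% for TNFa, 1.31% for VEGF and 3.21% for TNFa against IL1b, and none of the Eahy926-only regions, which lack no peak by the rule. The 3 treated groups share the 2 day 1 controls. The spread between libraries of a group was similar inside and outside the set, with a median residual SD of 0.19 (log2) for the Eahy926-only regions and 0.18 for the table.

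IL1b called none of the Eahy926-only regions in limma, where 0.0% of the table was called. At an unadjusted p under 0.05 there were 79 of 1078 (7.33%), against 6.95% of the table, and no alternative setting called any. The median log2 difference was 0.03 for the set and 0.01 for the table. The largest difference upward was at chr3:188344748-188345636, where fold enrichment was 4.02 and 3.13 in the day 1 controls and 7.40 and 4.36 with IL1b, a log2 difference of 0.77 ± 0.20 (SE; limma adjusted p = 0.624). The groups did not overlap, but the IL1b libraries differed from each other by more than IL1b replicate 2 did from the controls.

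The largest difference downward with IL1b was at chr22:16192039-16192727, near the centromere of chromosome 22. It measured 9.41 and 8.01 in the day 1 controls and 4.55 and 3.81 with IL1b, while the day 0 controls were at 9.66 and 7.0, TNFa at 7.03 and 7.07 and VEGF at 7.14 and 7.82. Both IL1b libraries were thus the lowest of the 10, with a log2 difference of -0.97 ± 0.18 (SE), yet the limma adjusted p was 0.624.

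TNFa called no Eahy926-only region by fold enrichment in limma, against 0.0% of the table. At an unadjusted p under 0.05 there were 80 (7.42%), against 6.91% of the table, and the medians were -0.01 for both. The largest difference upward was at chr18:70931067-70931756, at 4.56 and 4.52 in the day 1 controls and 7.74 and 7.88 with TNFa, a log2 difference of 0.72 ± 0.19 (SE; limma adjusted p = 0.400). Its day 0 controls were at 7.63 and 7.17 before centring. The median over the table was 7.34 and 7.22 in those libraries, against 5.70 and 5.86 with TNFa. The largest downward was at chr1:12212815-12214263, at 8.14 and 5.11 in the controls and 3.87 and 3.99 with TNFa, a log2 difference of -0.78 ± 0.21 (SE; limma adjusted p = 0.407).

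Depth-scaled pileup sets no local background against the summit. By that measure limma called 6 Eahy926-only regions for TNFa, 1 higher and 5 lower. Of the table it called 0.437% (0.317% higher and 0.12% lower). By direction, 0.0928% of the set was higher and 0.464% lower; with 1 and 5 regions, whether these shares differ from those of the table was not tested. The region that rose was chr12:75850730-75852561, a 1832 bp region with a scaled pileup of 1.97 and 2.39 in the day 1 controls and 5.80 and 7.25 with TNFa, a log2 difference of 1.43 ± 0.23 (SE; limma adjusted p = 0.0160). The 8 libraries without TNFa lay between 1.66 and 3.17 and did not overlap with the TNFa pair. By fold enrichment the same region differed by 0.23, with a limma adjusted p of 0.854, so the call rests on the measure.

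The lower calls by pileup were led by chr1:109044978-109045821, at a scaled pileup of 2.95 and 5.10 in the day 1 controls and 1.41 and 1.10 with TNFa, a log2 difference of -1.79 ± 0.28 (SE; limma adjusted p = 0.0141). The IL1b libraries, at 3.999 and 3.77, and the VEGF libraries, at 3.37 and 5.46, lay near the day 1 controls, while the day 0 controls, at 1.39 and 0.852, were as low as TNFa. The other 4 were chr3:8361082-8362717 (log2 difference -1.33), chr3:110382370-110384061 (-1.35), chr4:84129069-84130711 (-1.19) and chr19:14616389-14617774 (-1.21). In chr4:84129069-84130711 the TNFa libraries stood at 1.88 and 1.89 and the other 8 libraries between 2.55 and 5.10, with no overlap. By fold enrichment that region did not fall, with a log2 difference of 0.05 (limma adjusted p = 0.975). None of the 5 lower regions was called by fold enrichment, where the largest fall was -0.65 at chr19:14616389-14617774 (limma adjusted p = 0.392). These regions were named after their values were seen.

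Adding VEGF called no Eahy926-only region in limma, against 0.0% of the table. At an unadjusted p under 0.05 there were 65 (6.03%), against 5.48% of the table, no alternative setting called any, and both medians were -0.01. The largest difference upward was at chr5:35616906-35618582, at 5.25 and 6.05 in the day 1 controls and 8.99 and 9.83 with VEGF, a log2 difference of 0.71 ± 0.18 (SE; limma adjusted p = 0.856). The day 0 controls without VEGF were at 9.22 and 10.7 before centring. The median over the table was 7.34 and 7.22 in those libraries, against 5.66 and 5.64 with VEGF. The largest downward was at chr10:95777504-95779000, at 8.77 and 6.42 in the controls and 3.63 and 4.41 with VEGF, a log2 difference of -0.94 ± 0.21 (SE; limma adjusted p = 0.856).

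The cytokines compared with each other gave no call by fold enrichment in limma, against 0.0% of the table, with 107 Eahy926-only regions (9.93%) at an unadjusted p under 0.05 against 9.49% of the table. TNFa exceeded IL1b most at chr1:240965379-240967248, at 6.05 and 5.99 with TNFa and 3.03 and 3.50 with IL1b, a log2 difference of 0.74 ± 0.19 (SE; limma adjusted p = 0.375). It fell furthest below IL1b at chr2:37856394-37857350, at 3.41 and 4.35 with TNFa and 7.04 and 4.86 with IL1b, a log2 difference of -0.75 ± 0.20 (SE; limma adjusted p = 0.375). Neither difference passed the threshold.

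By depth-scaled pileup, 7 Eahy926-only regions (0.649%) differed between the cytokines, 2 higher and 5 lower with TNFa, where 0.472% of the table was called (0.263% higher and 0.209% lower). The 2 higher were chr12:70698620-70699811, at 4.08 and 5.83 with TNFa and 2.50 and 1.44 with IL1b, and chr18:64910894-64912241, at 4.08 and 5.52 against 2.33 and 1.62. Among the lower, chr1:109044978-109045821 and chr4:84129069-84130711 are described above. The rest were chr2:176720316-176721349 (log2 difference -1.27), chr3:124858712-124859705 (-1.11) and chr11:128602505-128604475 (-1.01). By fold enrichment none of the 7 was called, and the smallest limma adjusted p among them was 0.381. All 7 were named after their values were seen.

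The largest shift in the set came with library day and not with a treatment. Between the untreated controls of day 1 and day 0, limma called 64 Eahy926-only regions (5.94%), 55 higher and 9 lower on day 1, where 4.39% of the table was called (2.8% higher and 1.59% lower). At an unadjusted p under 0.05 there were 274 (25.4%), against 21.5% of the table. The median log2 difference was 0.10 for the set and 0.02 for the table. Preparation and depth changed with the day and cannot be told apart, and the labels do not say whether the cultures also differed. Without centring, the split became 14 higher and 220 lower, where 31.2% of the table was called (0.658% higher and 30.5% lower), because the median of the whole table then fell by 0.37 on the log2 scale, so directions here are relative to the other regions of the table. Leaving out any of the 4 control libraries left 4 to 15 calls: 5 and 6 without replicate 1 and 2 of day 0, and 15 and 4 without replicate 1 and 2 of day 1. The whole table dropped alike, from 734 calls to 29, 57, 179 and 75 under the same omissions. By depth-scaled pileup 523 regions of the set (48.5%) were called against 40.7% of the table, and by covered bp 8 (0.742%) against 0.58%. At a −log10 q of at least 5, the set's share was instead below that table's, with 27 of 543 regions (4.97%) against 5.17%. Without the presence condition 30 (2.78%) were called against 14.3% of the 40701 regions. Those regions include many with a missing peak, which the rule bars from the set, so these 2 shares cannot be compared.

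The regions called higher on day 1 were on the low side in height, with a median of 4.59 for the 55, against 5.88 for the 9 called lower and 5.39 for the 1014 not called. They were also short, with a median length of 1066 bp against 1428.5 bp for those not called. The largest change was at chr6:118970105-118971124, at 3.14 and 2.77 on day 0 and 5.47 and 5.97 on day 1, a log2 difference of 1.35 ± 0.20 (SE; limma adjusted p = 0.00553). The 6 treated libraries of day 1, between 4.27 and 6.77, were also all above day 0.

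The other named regions that rose were also chosen for the size of this difference, so the separation of their control libraries follows from the choice. Region chr9:123472790-123473430 measured 2.64 and 2.60 on day 0 and 5.25 and 4.75 on day 1, a log2 difference of 1.33 (limma adjusted p = 0.00279). Region chr19:1745116-1745861 measured 2.55 and 2.50 on day 0 and 4.24 and 5.02 on day 1, a difference of 1.26 (limma adjusted p = 0.00437). Region chr16:6154670-6155969 measured 4.91 and 3.72 against 6.72 and 8.15, a difference of 1.19 (limma adjusted p = 0.00761). At chr1:193102128-193102979, which entered the set at the q threshold, the controls were at 3.51 and 4.74 on day 0 and 8.33 and 7.47 on day 1. The difference was 1.35 (limma adjusted p = 0.00756). Before centring, IL1b replicate 2 of day 1 was at 3.64. The median over the table was 4.96 in that library, against 7.34 and 7.22 on day 0. These 5 were also the only Eahy926-only regions called with quantile normalization, which called 0.449% of the table (0.251% higher and 0.197% lower).

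The named regions that fell on day 1 were chosen in the same way. They stood at 9.93 to 16.4 on day 0, above the medians of the set in those libraries (6.20 and 6.43). Region chr9:97316739-97317759 went from 16.4 and 14.2 to 5.32 and 7.50, a log2 difference of -0.88 (limma adjusted p = 0.0196), with the treated libraries of day 1 between 5.45 and 7.11. Region chr1:16493687-16494580 went from 9.93 and 12.2 to 4.59 and 4.82, a difference of -0.83 (limma adjusted p = 0.0164), and chr18:65085061-65086147 from 11.6 and 12.3 to 5.40 and 5.06, a difference of -0.80 (limma adjusted p = 0.0164). Region chr2:208039074-208040085 fell from 10.9 and 10.0 to 4.88 and 4.17, a difference of -0.82 (limma adjusted p = 0.0215). In chr19:1512516-1514015, at 13.1 and 15.2 against 6.86 and 5.32, the limma adjusted p of 0.0494 was at the threshold. In these 5 regions all 8 libraries of day 1 lay below both day 0 controls.

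**Figure D5:**
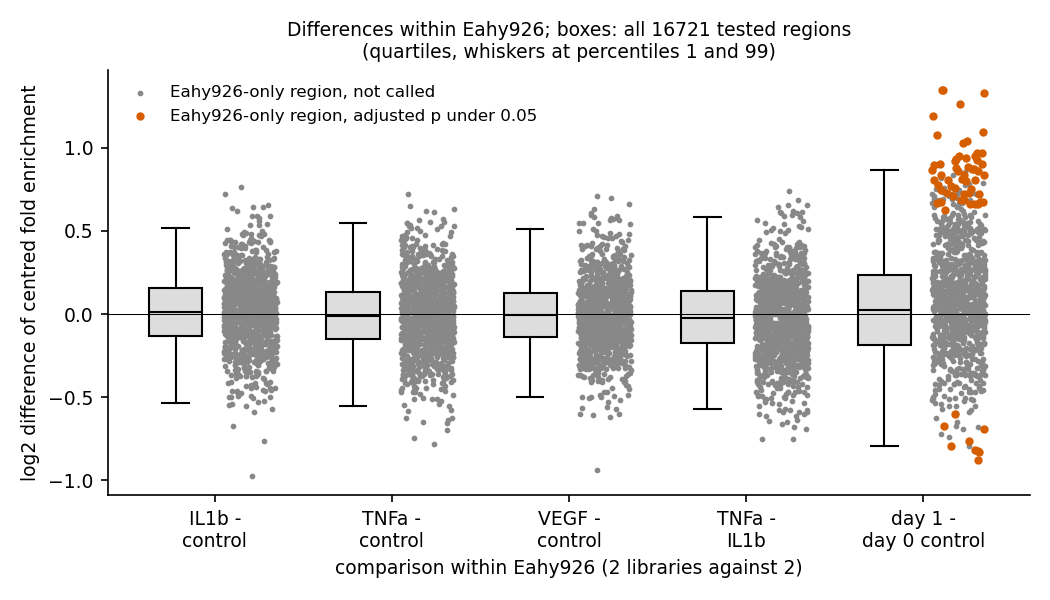
Log2 differences of centred fold enrichment in 5 comparisons within Eahy926 (2 libraries against 2), with boxes for all 16721 tested regions (quartiles, whiskers at percentiles 1 and 99) and points for the 1078 Eahy926-only regions, spread sideways at random. Calls (orange, limma adjusted p under 0.05) occur in the comparison of the library days alone, 55 above and 9 below 0, and the points of the treatments lie around 0.

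Few Eahy926-only regions overlapped an input peak, and the input lists were short. At a −log10 q of at least 2, each of the 4 held 92 to 123 autosomal peaks over 0.047 to 0.057 Mb. With lists this short, a low overlap does not measure the input signal at the regions. At a −log10 q of at least 2, 1 Eahy926-only region, chr12:80634907-80636830, overlapped an input peak, in a TeloHAEC input library. In the input lists as deposited 7 did (0.649%), against 3.01% of the shared regions and 0.994% of the TeloHAEC-only regions. Region chr12:80634907-80636830 had fold enrichments of at least 4.61 in the Eahy926 ChIP libraries.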

How the data were processed

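H3K27ac ChIP-seq peak lists of 20 ChIP and 4 input libraries were used. Per the submitters' processing notes, reads were aligned to hg19 with Bowtie2 and peaks called with MACS2. The version was MACS 2.1.1.20160309, used library by library with no control file, per the file headers, which also give the p cutoff (0.001), summit calling, the limit of 1 tag at any position and the 10000 bp window for local background. The deposited values are the pileup signal at each summit, the fold enrichment (a ratio to the local background), and the −log10 p-value and −log10 q-value. The q-value column holds values although the file headers say that q-values were not calculated. Peak lengths and positions (hg19, 1-based) are also deposited. A list gives no value where no peak was called.

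From these, regions were merged in Python 3.11.15 (pandas 2.3.3), and log2 of the highest fold enrichment per region and library, centred on the library median, was fitted with limma 3.58.1 in R 4.3.3: 5 group means over the 10 Eahy926 ChIP libraries, 5 residual degrees of freedom, Benjamini-Hochberg adjustment over 16721 regions. Alternatives were a −log10 q of at least 5, pileup per 1000000 tags, covered bp, a pseudocount of 1, no centring, quantile normalization, no presence filter, a replicate block, the compared groups alone, and each library left out. The fit was tested on simulated data. The members, lists and comparisons were chosen with earlier results of these data known. Regions named in the text were the 10 tallest, the 5 longest, the 3 with the lowest smallest q, the 3 largest runs, and per comparison and direction the 5 called with the largest differences, or the single largest where none was called. Gene names, gene lists, sequences and motifs were not used here, since the reference tables at hand are on another build than hg19. With 2 libraries a group, a single library carries much of each value.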

Additional observations from a re-analysis of the deposited data

Results flagged for a closer look

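The X chromosome was outside the rule for the set. There, 34 of 2692 merged regions (1.26%) had a peak in all 10 Eahy926 and no TeloHAEC library, a share close to the 1.24% of the autosomes, and 30 (1.11%) showed the opposite pattern. The tallest of the 34 was chrX:120330850-120332370, with a median fold enrichment of 7.83 and a range of 5.92 to 9.83 over the Eahy926 libraries, followed by chrX:110282812-110284333 with a median of 7.31.

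Peaks under the q threshold, which the rule did not read, were present in TeloHAEC libraries at 29 Eahy926-only regions, against 7 that lay under an input peak in the lists as deposited. Only 1 of the 29 had such a peak in 2 TeloHAEC libraries. Per TeloHAEC library the number ran from 0, in control replicate 2 of day 0, to 6, in control replicate 1 of day 0.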

How the results depend on the processing

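The number of Eahy926-only regions was 543 at a −log10 q of at least 5 and 263 where a peak had to cover at least 50% of the merged region. It stayed within 1.5 times of 1078 with no q minimum (1203), with every library's list shortened to the same length (1074), merging over gaps of 500 bp (1024), and each library left out (1084 to 1411). The highest of these came without IL1b replicate 2 of Eahy926.

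No Eahy926-only region was called for IL1b or VEGF under any setting run, or with any library left out; over all regions, the setting without the presence filter called 740 for IL1b (1.82%) and 532 for VEGF (1.31%). Shares without the presence filter include regions that lack a peak in some libraries, as no Eahy926-only region does. By depth-scaled pileup, 6 Eahy926-only regions were called for TNFa and 7 for TNFa against IL1b. Between library days, where 64 were called, 27 were called at a −log10 q of at least 5 with the regions remade (5.17% of that table), 523 by depth-scaled pileup (40.7%), 8 by covered bp (0.58%), 234 without centring (31.2%), 5 with quantile normalization (0.449%) and 30 without the presence filter (14.3%); the cause was not tested. Leaving out a library gave 4 to 68 calls. Measured as covered bp, 4 named differences turned sign: chr10:95777504-95779000 with VEGF (1.37), chr1:240965379-240967248 (-0.21) and chr2:37856394-37857350 (0.36) for TNFa against IL1b, and chr19:1512516-1514015 between days (0.41).

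Replicate numbers did not pair the libraries, with correlations of deviations from -0.06 to 0.05 between groups. A fit with the replicate block called 69 Eahy926-only regions between days and none in the other comparisons.

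Depth limits the day 1 libraries most: the median summit pileup of the Eahy926-only regions was 15 to 26 there and 49 to 55 on day 0. Heights exist only where a peak was called, so a TeloHAEC height at these regions cannot be given.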
